A study of Mus musculus with 4 samples.

Results

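The genes described here are 9 markers of natural killer (NK) cells and of cytotoxic killing: the surface receptor genes Ncr1, Klrb1c and Klrd1, the transcription factor genes Eomes and Tbx21, and the granule genes Nkg7, Gzma, Gzmb and Prf1. They were chosen by name, and their array probes were found through the RefSeq accession that each probe carries. They are 9 of the 20284 genes that could be matched to a probe in this way. Total RNA came from the spleens of ICR mice (outbred) at the age of 5 days, and the RNA of each sex and treatment was pooled. The CB-NP pools came from offspring of dams that received carbon black nanoparticles through the nose at gestational days 5 and 9, with 95 microg/kg per instillation. The control pools came from offspring of dams that received distilled water, 1 mL/kg at each time, instead. The number of animals in a pool is not given in the sources used here. The 4 pools, control and CB-NP for males and for females, were each read on 1 single-colour array, and differences between 2 pools therefore have no replicate check.

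NK cells are innate lymphocytes that kill infected or transformed cells without prior priming. They bind a target, release granules in which perforin opens the membrane and granzymes cleave proteins inside the target, and their development from bone marrow and liver precursors depends on the related T-box factors Eomes and T-bet and on interleukin 15. In newborn mice the spleen holds few mature NK cells, and their number and receptor repertoire grow over the weeks after birth. CD8 T cells use the same granules, and in a whole organ the granule genes report both cell types. In such bulk RNA, fewer cells of a type and less RNA per cell cannot be told apart.

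Because Eomes and Tbx21 encode T-box factors and Runx3 encodes a Runt factor of NK cells, the DNA just upstream of the members is shown for 4 genes that differ in how they behaved between the pools. Upstream sequence was held for 8 of the 9 genes and was not held for Klrd1. The sequences are the 250 bases before the RefSeq start, 5′ to 3′ along the gene's strand, from RefSeq on GRCm38.p6. They lie at chr7:43436888-43437137 (plus strand) for Nkg7, chr13:113100982-113101231 (minus strand) for Gzma, chr14:56262335-56262584 (minus strand) for Gzmb and chr7:4337465-4337714 (plus strand) for Ncr1. Capitals mark matches, on either strand, to the T-box motif GGTGTGA and the Runt motif TGTGGT (read as TCACACC and ACCACA on the opposite strand).
Nkg7: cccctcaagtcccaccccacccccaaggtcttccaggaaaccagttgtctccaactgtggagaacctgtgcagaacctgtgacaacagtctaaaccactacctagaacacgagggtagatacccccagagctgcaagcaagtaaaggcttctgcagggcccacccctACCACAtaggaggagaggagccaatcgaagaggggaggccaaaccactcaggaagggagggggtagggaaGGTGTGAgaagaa
Gzma: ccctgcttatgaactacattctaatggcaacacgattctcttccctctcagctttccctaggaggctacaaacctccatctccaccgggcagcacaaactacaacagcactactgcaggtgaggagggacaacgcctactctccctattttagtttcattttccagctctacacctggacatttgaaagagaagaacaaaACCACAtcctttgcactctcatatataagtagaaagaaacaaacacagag
Gzmb: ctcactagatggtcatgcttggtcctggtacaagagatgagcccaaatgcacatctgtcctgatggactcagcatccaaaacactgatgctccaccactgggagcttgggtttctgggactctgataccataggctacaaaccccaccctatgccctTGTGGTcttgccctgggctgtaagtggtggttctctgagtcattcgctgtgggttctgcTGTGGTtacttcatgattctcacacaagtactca
Ncr1: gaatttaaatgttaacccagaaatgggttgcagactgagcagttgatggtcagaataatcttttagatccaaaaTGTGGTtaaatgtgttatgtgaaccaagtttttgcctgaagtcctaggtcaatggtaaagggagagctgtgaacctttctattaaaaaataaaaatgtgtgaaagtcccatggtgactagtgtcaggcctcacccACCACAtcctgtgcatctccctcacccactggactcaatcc
The Runt letters occurred in 6 of the 8 genes (2 times each in Gzmb and Ncr1), against 14.2% of all 27025 promoters of the same length. The T-box letters occurred in 1 of 8, Nkg7, where they sit 13 to 7 bases before the start, against 3.31% of all promoters. The ETS motif GGAAGT was present in 3 of 8 genes (Klrb1c, Tbx21 and Prf1), against 20.0%, and the STAT motif TTCNNNGAA in 1 of 8 (Nkg7), against 7.18%. No match of 1 motif overlapped a match of another. A match describes letters in this window and is neither a binding site nor a cause of what follows.

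By its brightest probe each of the 9 genes stood well above background on all 4 arrays, so none was lost to the filter on dim probes. Levels are log2 intensities with the 75th percentile of each array set to 0. The scanner error quoted is propagated from the error deposited with each spot and does not cover the spread between animals. For the bright genes Nkg7 and Gzma the error of a level was 0.14 on all 4 arrays alike. There it behaved as a fixed share of the signal, not as a measured spread. Of 8 spleen marker genes, 8 stood well above background on every array. So did 13936 of all 20284 matched genes and 10 of 19 pancreatic acinar genes, so this count does not test the tissue label. On the arrays 57.3% to 59.0% of spots were well above background. Summed over the 9 members, levels relative to the 75th percentile spanned 12.5 to 15.1, and markers of pancreatic acinar cells, B cells and eosinophils spanned wider ranges. The members' sum is of linear levels and rests mostly on Nkg7 and Gzma, the only members above the 75th percentile, so it says little of the others. Over 10 pancreatic acinar enzyme genes measured on every array, such summed levels were 21.4 and 2.12 in control and CB-NP males and 14.7 and 2.17 in control and CB-NP females. In the same order they were 61.3, 103, 57.7 and 94.6 for 11 B cell genes, and 31.8, 8.89, 62.3 and 17.2 for 6 eosinophil genes. The part of these shifts in the values below was not tested.

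Of the receptors, the 3 members showed their highest level in the female control pool and a lower level in the female CB-NP pool. Ncr1 (chromosome 7) encodes NKp46, an activating receptor regarded as the most selective marker of mouse NK cells. Its intensity was 38.3 and 41.8 in control and CB-NP males and 70.3 and 44.3 in control and CB-NP females, an order kept for the intensities that follow. Intensities are unscaled, and the 75th percentiles that the levels and differences are set against were 335, 340, 392 and 317. The female control was the highest pool and the male control the lowest. Ncr1 was 1.57-fold higher in the female than in the male control (log2 difference 0.65, scanner error 0.23), and its difference with CB-NP was 0.10 (0.23) in males and -0.36 (0.23) in females. Normexp background correction was run with an offset of 50 added to every spot, which compresses differences of dim spots whatever their true size. With it the control difference of Ncr1 between the sexes was 0.15 and the female CB-NP difference -0.020.

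Klrb1c (chromosome 6) encodes NK1.1, a lectin-like activating receptor. Its main probe, for the transcript NM_001159904, read 70.1, 56.3, 93.8 and 49.2 in the same order. Both CB-NP pools were below both control pools, which held for no other member except Eomes. The difference with CB-NP was -0.34 (scanner error 0.22) in males and -0.62 (0.22) in females, a 1.54-fold lower level in the latter pair. In the female pair 2.51% of all genes were at least 1.5-fold lower, and Klrb1c was the 1 member among them. A second probe, for the transcript NM_008527, was well above background only in the female control pool, where it read 27.8 against 2.57 in the female CB-NP and 3.98 in the male control pool. By that probe Klrb1c was at least 2.28-fold lower in the female CB-NP than in the female control pool and at least 3.37-fold higher in the female than in the male control pool. The direction was shared by both probes in both comparisons. With normexp the female difference of the main probe was -0.26.

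Klrd1 (chromosome 6) encodes CD94, which pairs with NKG2 chains to read the non-classical MHC molecule Qa-1. It read 83.2, 77.7, 132 and 89.3. Both female pools were above both male pools, by 0.44 (scanner error 0.21) in controls and 0.30 (0.21) with CB-NP. The CB-NP differences were -0.12 in males and -0.26 in females, about the size of the scanner error.

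The T-box factor genes lay on opposite sides of 0 with CB-NP in both sexes, except that Eomes changed sign in females with normexp. Eomes (chromosome 9), which encodes a factor needed for NK cell maturation, read 46.7, 32.7, 50.3 and 36.2. It was 1.45-fold lower with CB-NP in males (log2 difference -0.54, scanner error 0.23) and differed by -0.17 (0.23) in females. Its second probe did not stand well above background in any pool. Tbx21 (chromosome 11), which encodes T-bet and drives interferon gamma production, had log2 levels of -2.30, -1.97, -1.97 and -1.81. The male control was the lowest pool and the other three lay within the scanner error of each other. Its CB-NP differences were 0.33 (0.21) in males and 0.16 (0.21) in females. Set against each other within the arrays, where any constant factor per array cancels, Tbx21 minus Eomes differed by 0.86 (0.31) with CB-NP in males and by 0.33 (0.31) in females. This pair, and that of the granzymes below, was set side by side after the values were seen. With normexp the female difference of Eomes changed sign, to 0.079, and the male one was -0.28.

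Of the granule genes, Nkg7 and Prf1 differed little between the pools, and the granzyme genes lay on opposite sides of 0 with CB-NP in females. Nkg7 (chromosome 7), a granule membrane protein needed for granule release, read 2130, 2290, 2310 and 1820, and its second probe 626, 677, 676 and 543. By the main probe its CB-NP differences were 0.083 in males and -0.038 in females, and by the second 0.092 and -0.0097, all within the scanner error of 0.20. Prf1 (chromosome 10), perforin, read 145, 162, 178 and 134, with CB-NP differences of 0.14 in males and -0.10 in females, also within 0.21. For Nkg7 and Prf1 no pool stood apart.

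Gzma (chromosome 13), granzyme A, a tryptase-like enzyme, read 1830, 1910, 2920 and 1640. The female control was above the other three pools, which lay together. Gzma was 1.44-fold lower with CB-NP in females (log2 difference -0.53, scanner error 0.20) and differed by 0.040 in males. Between the control pools it was higher in the female by 0.45. Over every scaling and background correction tried, the female CB-NP difference stayed between -0.64 and -0.44.

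Gzmb (chromosome 14), granzyme B, which activates caspases in target cells, read 35.8, 30.7, 61.9 and 69.1. Both female pools were above both male pools. The gap was 0.56 (scanner error 0.23) between the control pools and 1.27 (0.24) between the CB-NP pools, which is 2.41-fold. By the main probes it was the only difference of at least 2-fold among the members. The bounds of the second Klrb1c probe, given above, also exceeded 2-fold. Between the CB-NP pools 0.397% of all genes were at least 2-fold higher in the female. With CB-NP, Gzmb differed by 0.47 (0.22) in females and by -0.24 (0.25) in males. Its signal is dim, and normexp brought the 2.41-fold gap to a log2 difference of 0.50, below 2-fold. In the female pair Gzmb and Gzma lay on opposite sides of 0, and Gzmb minus Gzma was 0.99 (0.30), against -0.28 (0.32) in the male pair.

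**Figure D1:**
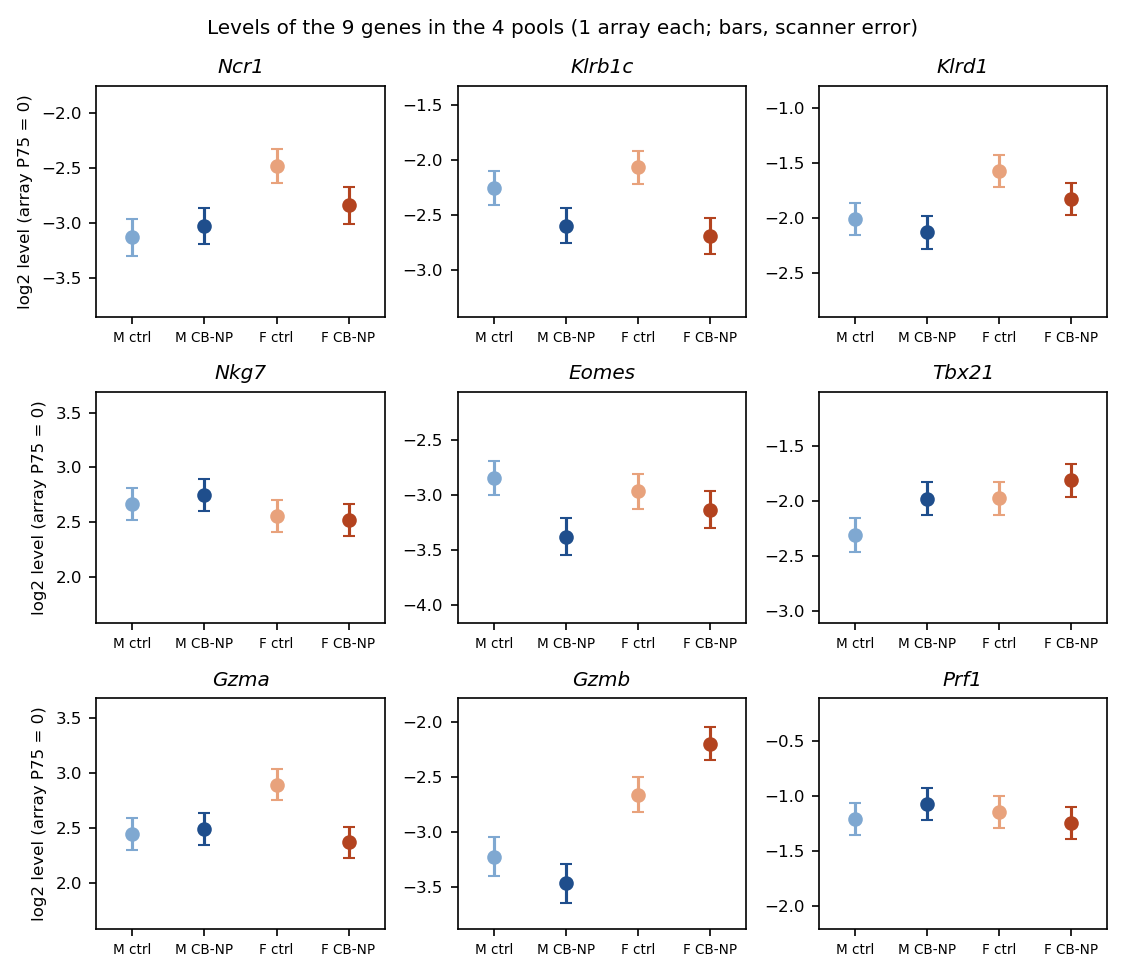
Log2 level of each of the 9 genes (main probe; 75th percentile of the array set to 0) in the male (M) and female (F) control and CB-NP pools, 1 array each; bars are the scanner error and every panel spans the same number of log2 units. Ncr1, Klrb1c, Klrd1 and Gzma are highest in the female control, both female pools are above both male pools for Gzmb, and Nkg7 and Prf1 are nearly level.

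Compared pair by pair, the 9 genes showed no common direction with CB-NP. In males 5 were above 0 and 4 below, with a median log2 difference of 0.040 beside -0.021 over all 14188 genes measured. Of all those genes 45.2% were above 0. No member was at least 2-fold different in males, where 0.352% of all genes were higher and 0.507% lower by that much, and none reached 1.5-fold (2.57% higher and 2% lower). Outside the 95% interval of the scanner error lay 1 member, Eomes, on the lower side, beside 5.61% of all genes on the higher and 3.73% on the lower side. In females 2 were above 0 (Gzmb and Tbx21) and 7 below, with a median of -0.17 beside -0.044 over 14076 genes. Again none was at least 2-fold different by its main probe, against 0.661% of all genes higher and 0.433% lower. Klrb1c alone reached 1.5-fold (background 4.38% higher and 2.51% lower). Outside the 95% interval of the scanner error lay Gzmb on the higher side (background 8.06%) and Klrb1c and Gzma on the lower side (7.32%). Over all genes in that pair 43.3% were above 0. The sign of the female difference changed with the processing for Nkg7 and Eomes, and that of the male difference for Ncr1.

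Between the 2 control pools, whose labels differ by sex alone, 7 of 9 members were higher in the female, beside 52.4% of all 14165 genes. The median of the members was 0.33, beside 0.011 over all those genes. The exceptions were Nkg7 (-0.11) and Eomes (-0.12), and the sign changed with the processing for Nkg7 (-0.14 to 0.0080) and Prf1 (-0.023 to 0.19). No member reached 2-fold there by its main probe, against 0.254% of all genes higher and 0.522% lower. By the main probes Ncr1 alone reached 1.5-fold (background 1.53% higher and 2.53% lower). Outside the scanner interval on the higher side lay 4 members, Ncr1, Klrd1, Gzma and Gzmb, beside 3.74% of all genes, and none lay on the lower side (4.9%). Between the CB-NP pools 5 of 9 were higher in the female, beside 43.0% of all 14110 genes. The median of the members was 0.17, beside -0.025 over all those genes. Gzmb was the 1 member past 1.5-fold (background 1.91% higher and 1.28% lower), past 2-fold (0.397% higher and 0.269% lower) and outside the scanner interval on the higher side (3%), and Nkg7 at -0.23 lay inside it on the lower (2.87%). The control comparison and the CB-NP comparisons share control arrays, so a high reading of the female control raises the first and lowers the second for the same gene. Of the 9 members, 5 (Ncr1, Klrb1c, Klrd1, Gzma and Prf1) were higher in the female control than in both the male control and the female CB-NP pool. The same held for 38.2% of the 13936 genes that stood well above background throughout. The female control was the highest of the 4 pools for 4 of 9 members, all of these but Prf1, and for 33.3% of the same genes.

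**Figure D2:**
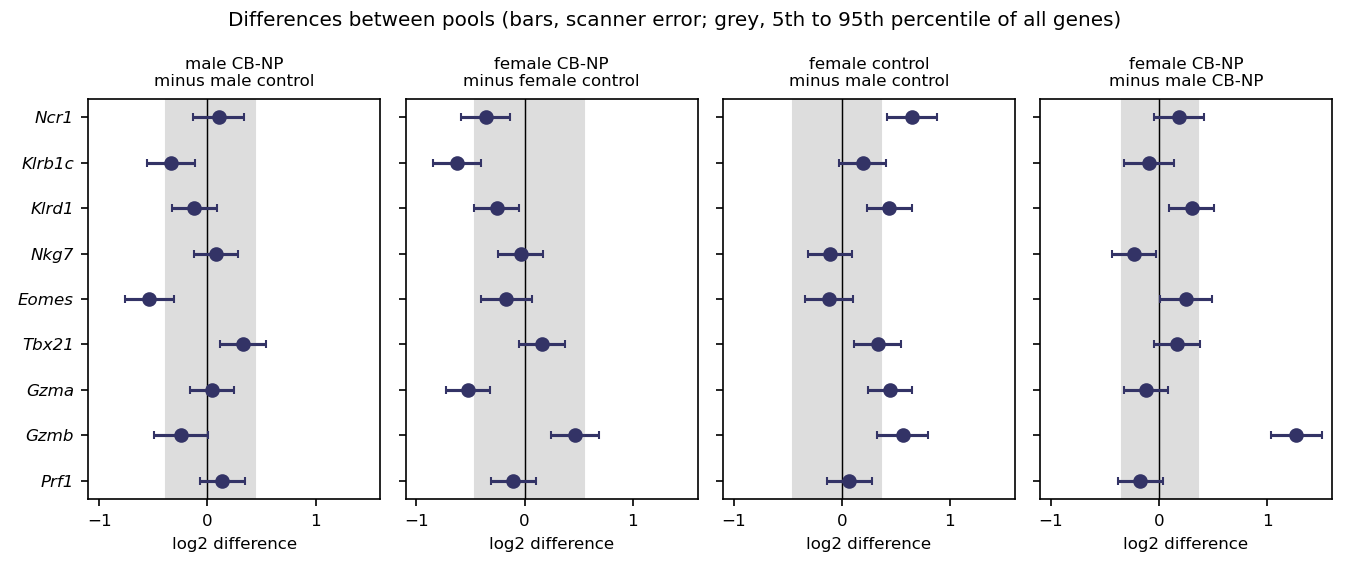
Log2 difference of each of the 9 genes in 4 comparisons of pools; bars are the scanner error of the difference and the grey band runs from the 5th to the 95th percentile of all genes measured in that comparison. Most points lie within or beside the band, and Gzmb between the CB-NP pools (1.27) lies farthest out.

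A model over all 4 arrays, with sex and treatment as terms and 1 residual degree of freedom, tested what was shared by both pairs. That degree of freedom is the gap between the male and female CB-NP differences, so a response in 1 sex counts as error. By limma with Benjamini-Hochberg adjustment over 14503 genes, none of the 9 members passed for CB-NP, with adjusted p between 0.336 and 0.943. The background was 0.0138% of genes called higher and 0.069% called lower. On simulated data the same fit recovered 0% of genes changed by log2 1, so a shared 2-fold change could go uncalled. At an unadjusted p under 0.05 stood 1 of 9 members, beside 13.8% of all genes. That member was Klrb1c, below its control in 2 of 2 pairs (log2 difference -0.48, standard error 0.12, unadjusted limma p 0.0203, adjusted p 0.336). The next were Eomes, lower in 2 of 2 pairs (-0.35, standard error 0.13, adjusted limma p 0.377), and Tbx21, higher in 2 of 2 pairs (0.25, standard error 0.099, adjusted limma p 0.382).

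For sex, none of the 9 members passed in the same limma fit, where 0.0069% of genes were called higher and 0.0207% lower in females. At an unadjusted p under 0.05 stood 2 of 9 members, beside 5.78% of all genes. Gzmb was higher in females in 2 of 2 pairs (log2 difference 0.92, standard error 0.21, unadjusted limma p 0.0170, adjusted p 0.783). Klrd1 was higher in females in 2 of 2 pairs (0.37, standard error 0.096, unadjusted limma p 0.0239, adjusted p 0.795). With median centring limma called Gzmb (adjusted p 0.00146), and over the other alternatives the lowest adjusted p of any member for sex lay between 0.575 and 0.998. The fit with median centring treated every gene as equally variable. With 2 pools against 2, an exact permutation test of a single gene cannot give a two-sided p below 0.333.

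The other genes of the NK pathway were read from lists of genes with known NK roles. For the counts above 0 in these and later lists, the share over all genes was 45.2% in males and 43.3% in females. Of 31 further NK receptor genes, 28 had a probe. Of these, 11 stood well above background in every pool and 14 in none. Among the latter were Klrk1 (NKG2D), Klrc1 (NKG2A, a partner of CD94) and 7 of the Ly49 genes (Klra2, Klra4, Klra6, Klra7, Klra8, Klra10 and Klra17). Where both arrays gave a level, 11 of 11 receptors were above 0 in the female pair, with a median of 0.44. Among these, Itga2 at 0.013 (scanner error 0.23), Klra9 at 0.14 (0.30) and Cd160 at 0.27 (0.42) lay within their scanner error, and the others lay beyond it. Outside that count were 3 receptors well above background on only 1 array of the pair, of which Klrg1 was at least 1.35-fold lower with CB-NP and Klrc3 and Klra5 at least 1.70-fold and 2.49-fold higher. In the same pair 7 of the 9 members were below 0 with a median of -0.17. With normexp that median was -0.020, and the median of the receptors was not computed. In the male pair 7 of 12 receptors were above 0 (median 0.079). By limma none of 12 passed for CB-NP, and 4 had an unadjusted p under 0.05, beside 13.8% of all genes. Klra1, the Ly49A gene, had the largest difference of the list in females. It read 162, 153, 109 and 226, so the female control was the lowest pool and the female CB-NP pool the highest. Its log2 difference was 1.36 (scanner error 0.21) in females, 1.04 with normexp, and -0.10 in males. Ly49 genes are close copies of one another, and which of them the probe reads was not tested. Cd96, a receptor that binds nectin-like ligands on NK and T cells, differed by 0.63 (0.21) in females and 0.070 in males, and Cd244a by 0.25 and -0.16. The lectin-like neighbours of Klrb1c, Klrb1a and Klrb1b, named after their values were seen, were higher with CB-NP in both sexes, by 0.75 and 0.59 and by 0.66 and 0.34, unlike Klrb1c. Both are dim, and their male differences were 0.16 and 0.21 with normexp.

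The other cytotoxic granule genes centred near 0 in females. Of 22 genes, 16 were measured and the 6 granzyme genes Gzmc, Gzmd, Gzme, Gzmf, Gzmg and Gzmn were well above background on no array. In males 11 of 16 were above 0 (median 0.10) and in females 8 of 16 (median -0.0011), with none at least 2-fold different. The proteoglycan gene Srgn, which packs granzymes, differed by 0.085 in males and -0.011 in females, Stxbp2, which serves granule fusion, by 0.12 and -0.043, and the serpin gene Serpinb6b by 0.15 and 0.062. By limma none of 16 passed for CB-NP (1 at an unadjusted p under 0.05, beside 13.8% of all genes).

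Signalling, regulator, cytokine and homing genes of NK cells lay mostly above 0 in both pairs, and none was at least 2-fold different in either. Of 11 signalling genes, 9 were above 0 in males (median 0.32) and 7 in females (median 0.20). The adaptor genes Tyrobp (DAP12) and Fcer1g, which myeloid cells also express, were lower in females, by -0.40 and -0.34 (scanner error 0.20), and near 0 in males. The list's widest female differences, named after their values were seen, were -0.62 for Fcgr3 and -0.60 for Sh2d1b1 on the lower side and 0.97 for Cd247 on the higher. Of 12 regulators, 8 and 9 were above 0 (medians 0.17 and 0.23), with Ets1 at 0.36 and 0.61, while Id2 was -0.20 and -0.031 and Zeb2 -0.049 and 0.058. Of 13 genes of the interleukin 2, 12, 15, 18 and 21 axes, 10 and 10 were above 0 (medians 0.032 and 0.11), with Il15ra at -0.12 and -0.032, Il18 at -0.19 and 0.071 and Stat5b at -0.0074 and -0.079. Of 10 homing genes, 9 and 8 were above 0 (medians 0.37 and 0.15), among them the chemokine gene Ccl5 (0.35 and 0.23) and the chemokine receptor gene Cx3cr1 (0.035 and 0.21). S1pr5, which lets NK cells leave lymphoid organs and was named after its values were seen, read 38.5, 51.4, 59.9 and 24.5, and its female CB-NP pool was the lowest. It differed by -0.98 (0.27) in females and 0.40 (0.24) in males, and by -0.24 and 0.056 with normexp. By limma none of these 4 lists held a gene called for CB-NP. At an unadjusted p under 0.05 stood 5 of 11, 4 of 12, 3 of 13 and 2 of 10, beside 13.8% of all genes.

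Of the ligands that NK receptors read on other cells, 3 were at least 2-fold different in 1 sex. H60b, a ligand of NKG2D, read 89.8, 29.9, 123 and 112. The male CB-NP pool alone was low, by -1.61 (scanner error 0.24), or -0.68 with normexp, and the female difference was 0.17. H2-T23, the Qa-1 gene whose product CD94 reads, was 1.13 higher with CB-NP in males and 0.53 in females. Raet1e, another NKG2D ligand, was 1.13 higher in females (0.63 with normexp) and 0.29 in males. Of 12 ligand genes, 10 were above 0 in males and 11 in females (medians 0.19 and 0.18). For CB-NP limma called none of 12, with 2 at an unadjusted p under 0.05, beside 13.8% of all genes.

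T cells, which also express the granule genes and several of the receptors, stood apart from the 9 genes in females. Of 14 T cell markers, 14 of 14 were above 0 in the female pair, with a median of 0.54. That is 0.71 above the median of the members, a gap that no constant factor per array can change. Background correction can change it: with normexp the female median of the members was -0.020, and that of the T cell markers was not computed. In the male pair 7 of 13 T cell markers were above 0 (median 0.016). Summed over 13 of these genes, T cell levels were 29.6, 30.0, 29.5 and 39.9, and each of the 14 genes was well above background on at least 1 array. Cd8b1, a chain of the CD8 coreceptor, was -0.48 in males and 0.81 in females, and the other chain, Cd8a, 0.13 and 0.72. Lck was 0.016 and 0.36. For mast cells and basophils, which can hold granzyme B, summed levels of 8 genes were 11.3, 9.76, 11.5 and 10.7, with 2 of 8 above 0 in males (median -0.25) and 4 of 8 in females (median -0.11). The mast cell protease gene Cma1 differed most in females (-0.87 in males and -1.31 in females), and the receptor gene Kit by -0.0028 and 0.044. For neutrophils, 9 of 9 genes were below 0 in females (median -0.35) and 8 of 9 above 0 in males (median 0.15). Other innate lymphoid markers were near 0, with medians of 0.051 and 0.087 over 5 genes, as with Itga1 (0.025 and 0.12). The part of each of these cell types in the members' values was not tested.

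**Figure D3:**
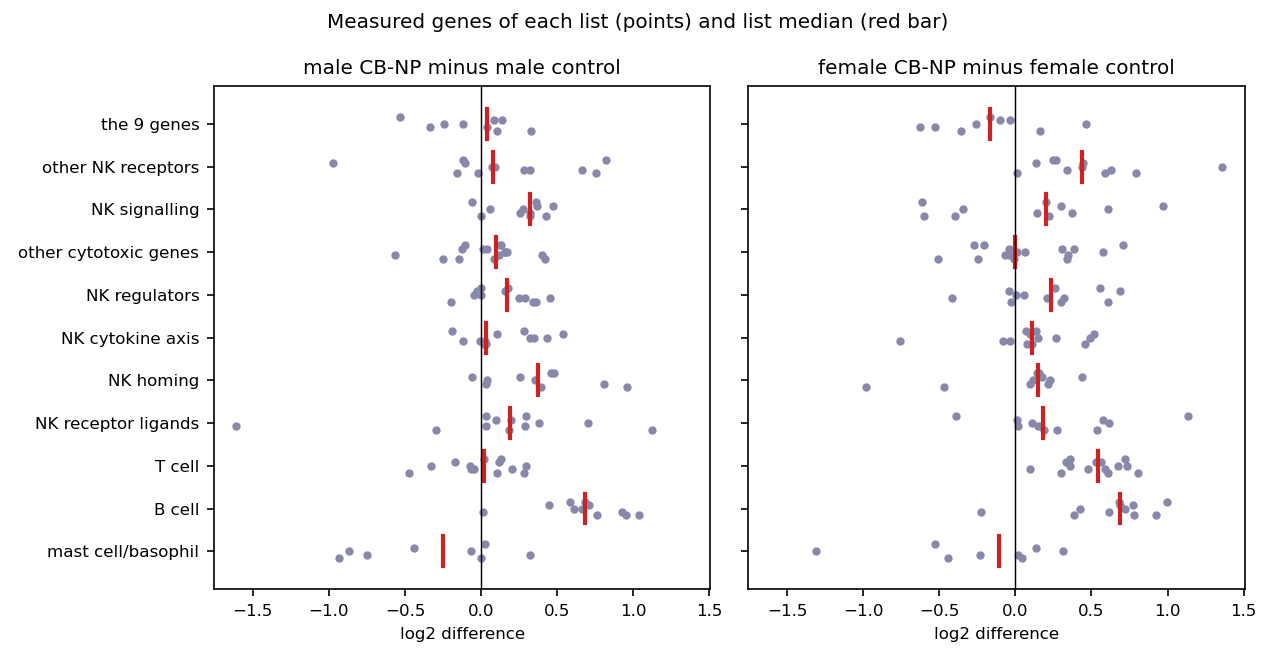
Log2 difference between CB-NP and control pools of each measured gene (grey points) of the 9 members and of 10 other lists, in males (left) and females (right); red bars are list medians. In females the median of the 9 genes is -0.17, whereas those of the other NK receptors (0.44), T cells (0.54) and B cells (0.69) lie above 0.

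The median profile of the 9 genes over the 4 pools, each centred on its own mean, was -0.10 and -0.16 in control and CB-NP males and 0.23 and -0.052 in control and CB-NP females. Among 13936 genes the likest non-members by root mean square distance over the 4 pools were Slc25a16 (0.022), Srp9 (0.023), Zfp512 (0.025), Sp4 (0.026) and Suclg2 (0.028). The members themselves were scattered. Klrd1 was the closest member, at rank 651 of 13936 (distance 0.084), then Gzma at 1257 and Ncr1 at 2576, and Gzmb the farthest, at 13439 (0.44).

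**Figure D4:**
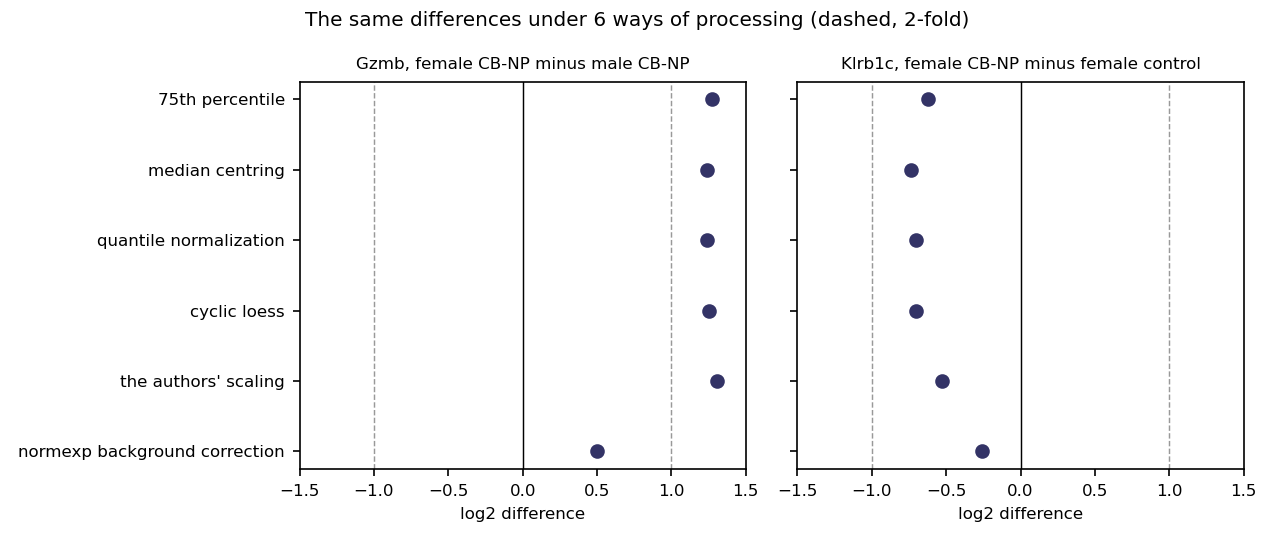
The log2 difference of Gzmb between the female and male CB-NP pools (left) and of Klrb1c between the female CB-NP and control pools (right) under 6 ways of processing; dashed lines mark 2-fold. Gzmb stays above 2-fold under every scaling and is 0.50 with normexp background correction, and Klrb1c ranges from -0.74 to -0.26.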

How the data were processed

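Spleen RNA pools were read on 1-colour (Cy3) Agilent arrays of design 028005 (build mm9), scanned with signals extracted by Agilent Feature Extraction 10.10.1.1, per the file headers. The deposited processed signal is an intensity, background-subtracted and detrended within each array by the authors' software and not normalized between arrays, per the file headers. The authors' value table, also an intensity, equalled that signal times 1 constant per array (2.64 to 3.49), with column medians of 75.2, 76.1, 68.9 and 79.4 (male control, male CB-NP, female control, female CB-NP), and the target of that scaling is not known here. Other deposited columns are flags of 0 or 1. No spot was saturated.

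Of 55681 probes, 26762 were matched by accession to 20284 genes (RefSeq table on GRCm38.p6, used for names, chromosomes and promoters). Log2 signals were centred on each array's 75th percentile, spots of a probe averaged without outliers, and a gene represented by its probe of highest mean signal, which for Klrb1c, Nkg7 and Eomes left a second probe. Genes entered a comparison when well above background on both arrays, and otherwise got a lower bound against the other array's lowest such level. Calls were at 2-fold, without a test. limma 3.58.1 (R 4.3.3) fitted sex and treatment over the 14503 genes that stood well above background on 2 or more arrays. It was tested on simulated data (14503 genes), where it recovered 0% of genes changed by log2 1 and 76% of those changed by log2 2. The simulated noise was independent, normal and drawn from the fit's own variance prior, without a sex effect, so it obeyed the model by construction. Tables and plots used Python 3.11.15 with pandas 2.3.3, numpy 2.4.6 and matplotlib 3.10.9. Named were the 9 members, from each NK list up to 5 genes at least 2-fold different in any comparison, filled up to 3 with the brightest, from each other list up to 2 by the same rule (not all are given), and the 5 genes of likest pattern. Alternatives were 5 other scalings or background corrections, the median over probes, 2 other filters, a 1.5-fold threshold and an intensity trend. Normexp used an offset of 50. The members and lists were chosen with earlier results of these data known. The labels do not say how many animals each pool held. The limma p-values rest on the disagreement between the male and female pairs, moderated over all genes, and not on replicates of a group.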

Additional observations from a re-analysis of the deposited data

Results flagged for a closer look

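For 5 of the 9 genes the CB-NP difference had opposite signs in the male and the female pair. The share of all genes with opposite signs was not computed, and 45.2% of all genes were above 0 in males and 43.3% in females. Of these 5 members, the sign changed with the processing for Ncr1 in males (-0.12 to 0.16) and for Nkg7 in females (-0.15 to 0.056). These contrasts between the sexes were not tested, since each rests on 1 pool per group. The female minus male gap of the log2 differences was 0.71 for Gzmb (scanner error 0.33), with -0.24 in males and 0.47 in females. It was -0.57 for Gzma (0.29), with 0.040 and -0.53. It was -0.46 for Ncr1 (0.33), with 0.10 and -0.36. For Prf1 it was -0.24 (0.29) and for Nkg7 -0.12 (0.29), both smaller than the scanner error.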

How the results depend on the processing

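Of 216 values of single members under other scalings, normexp background correction or the median over probes, 208 moved by less than their scanner error and 8 by more, all 8 with normexp. The 32 medians of the members moved by less than the scanner error. In the sex comparison of CB-NP pools normexp left 0 members at least 2-fold different. At 1.5-fold, by the main probes, 1 member (Klrb1c) passed in the female pair and 1 (Ncr1) between the control pools. No member was called for CB-NP under any alternative, and 1 (Gzmb) for sex with median centring. Over all genes, limma called 12 for CB-NP, and 344 with median centring, 636 with normexp, 380 with an intensity trend, 3 with quantile normalization, 3 with cyclic loess, 2 with the authors' scaling, 0 among genes that stood well above background throughout (2113 at an unadjusted p under 0.05) and 0 without a filter (1363). For sex it called 4, and 181 with median centring, 84 with normexp, 16 with a trend, 0 among genes on all 4 arrays (803) and 0 without a filter (836). With median centring and with normexp the fit treated every gene as equally variable. The part of this in those counts was not tested.

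Genes at least 2-fold higher and lower were 50 and 72 in males (69 and 61 with the authors' scaling, 11 and 24 with normexp). In females they were 93 and 61 (77 and 79 with quantile normalization, 65 and 88 with median centring, 140 and 50 with the authors' scaling, 20 and 30 with normexp). Between controls they were 36 and 74 (57 and 46, 51 and 54, 48 and 54, and 9 and 6 with median centring, quantile normalization, cyclic loess and normexp). The median of all genes moved with median centring, by -0.11 in females and 0.12 between controls. The labels number no replicates, so the only block that could be fitted was sex, a term of the model. Precision is limited by 1 array per group, and Ncr1, Eomes, Gzmb and Klrb1c are dim.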
